A study of Homo sapiens with 16 samples.

Results

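The p53 target genes described here were 37 genes named as direct targets of the tumour suppressor p53, by a rule that uses no measured value, although the list was drawn up with earlier results of these data known. All 37 were found among the 58735 genes of the deposited table through their Ensembl identifiers and GENCODE release 29 names. A mean of at least 1 FPKM (fragments per exon length and library size) over all libraries was required for testing, and 34 of the 37 reached it. The death receptor TNFRSF10A was listed at 0 to 0.0253 FPKM, the mitochondrial quality control gene SPATA18 at 0 to 0.0246 FPKM, and the glycolysis regulator TIGAR at 0.367 to 1.07 FPKM, and these 3 were not tested. Counts below are over the 34 tested members.

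The RNA came from U2OS, an established human osteosarcoma line with wild-type p53. Cells carried either an siRNA against SETD2 (siSETD2), the enzyme that trimethylates lysine 36 of histone H3, or a non-targeting siRNA (siNT). The treatments were 2 mM hydroxyurea (HU) together with 2 µM VE-822, 2 mM HU, 2 µM VE-822, each for 4 h, and no drug, and the time given is 48 h after transfection. HU starves replication forks of deoxynucleotides by inhibiting ribonucleotide reductase, and VE-822 inhibits ATR, the kinase that answers stalled forks. Each of the 8 groups had 2 libraries, R1 and R2, which makes 16, with 22310806 to 31101932 fragments assigned to genes in each. The labels do not say whether R1 and R2 came from separate cultures, so p-values measure the spread between libraries, and this may be technical. SETD2 RNA lay at 2.01 to 4.62 FPKM in the siSETD2 libraries and at 7.34 to 9.25 FPKM in the siNT libraries, so the knockdown was partial. Of the marker lists, 6 mesenchymal genes summed to 288 to 497 FPKM per library, and the epithelial, blood and endothelial lists stayed at or below 2.35 FPKM.

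The p53 protein is held low by MDM2, which targets it for degradation. After DNA damage or replication stress, ATM, ATR and their effector kinases phosphorylate p53 and MDM2, the protein accumulates, and it binds response elements built from paired decamers. Its targets halt the cell cycle, repair or bypass lesions, adjust metabolism and autophagy, or trigger apoptosis through death receptors and mitochondria. Much of this control acts on the p53 protein, which was not measured.

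The RefSeq promoter table (GRCh38.p14) held a window, from 250 bases before to 50 after the gene's start, for 30 of the 37 members. The p53 half-site consensus, searched by name as a decamer on both strands, occurred in the windows of 8 of these 30 members (26.7%). The share was 8.06% of all genes with a window and 7.37% of tested genes with a window. Because the list names direct p53 targets, a higher share could follow from the choice of list, and it is no result of these libraries. By window the shares were 20.5% of 39 member windows and 6.63% of 35116 windows in all. The stretches printed next belong to 3 members whose RNA is described below as higher in HU and to 2 that did not pass. Capitals mark the half-sites, and each is a letter match, not a shown binding site. PLK2 lies at chr5:58460199-58460228 on the minus strand, DDB2 at chr11:47214975-47215003 on the plus strand, and FAS at chr10:88991299-88991328 on the plus strand. SESN1 lies at chr6:109009018-109009047 on the minus strand and RAP2B at chr3:153162155-153162184 on the plus strand.
PLK2: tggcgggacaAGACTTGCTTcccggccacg
DDB2: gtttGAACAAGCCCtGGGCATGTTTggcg
FAS: cggaactcctGGACAAGCCCtgacaagcca
SESN1: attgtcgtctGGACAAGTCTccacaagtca
RAP2B: ggaacgcactGGGCATGCTCgccggggagg
DDB2 was the member with 2 half-sites in the printed stretch, separated by 1 base, and the other 4 printed members had 1 each. The other matches were in AEN, FDXR and RPS27L. A window without a match says nothing of p53 binding elsewhere.

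The libraries differed in p53 target levels before any drug was compared. In untreated siSETD2 cells 29 of 34 members were higher in R1 than in R2, with a median difference of 0.55 on the log2(FPKM + 1) scale, and in untreated siNT cells 30 of 34 were higher in R1, with a median of 0.40. Over all 13088 genes tested, 51.9% and 51.1% were higher in R1 in these groups, with medians of 0.0187 and 0.0031. The member medians were -0.13 in siSETD2 cells and -0.03 in siNT cells in HU with VE-822, and -0.00137 and 0.06 in HU, so the difference was seen in the untreated libraries and not in those with HU. CDKN1A, the inhibitor of cyclin-dependent kinases, differed by 1.23 in untreated siSETD2 cells and by 0.87 in untreated siNT cells. TRIAP1, an inhibitor of apoptosome assembly, differed by 1.1 and 0.09, and the cytokine GDF15 by 0.99 and 0.84. Against this pattern 7 members, CCNG1, EDA2R, TP53INP1, ZMAT3, SUSD6, RPS27L and CMBL, were higher in R1 in each of the 6 groups without VE-822 alone, where 17.5% of all genes did so. No member was lower in R1 in all 6, where 19.2% of genes were.

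**Figure D1:**
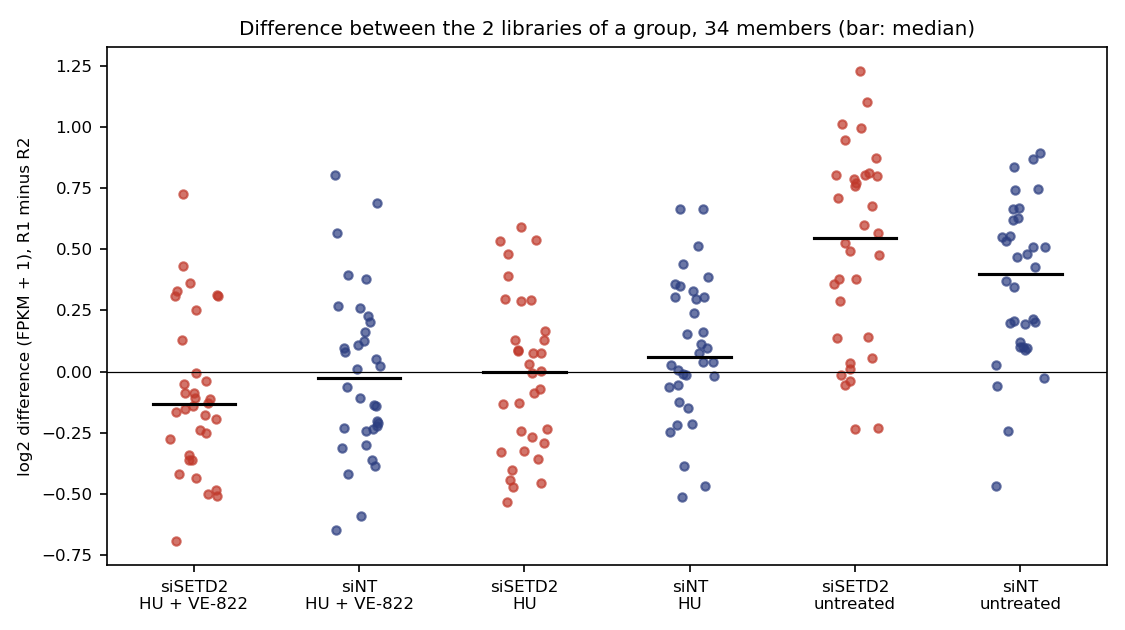
Difference R1 minus R2 in log2(FPKM + 1) for the 34 tested members in 6 groups (all but VE-822 alone), with 1 point per member and a bar at the median. The untreated groups sit above 0 with medians of 0.55 in siSETD2 and 0.40 in siNT, and the groups with HU scatter around 0.

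The R1 and R2 numbers also paired these 6 groups over all genes, at correlations of 0.363 to 0.746 between their R1 minus R2 differences. The 4 VE-822-alone libraries stood apart from this pairing, with correlations of -0.05 to 0.30 with the other groups, and of 0.395 between the siSETD2 and siNT groups in VE-822. Each comparison below is therefore given from a fit with 1 mean per group and, where it differs, with a replicate block in the 6 paired groups. The block fits 1 R1 minus R2 shift per gene, shared by these 6 groups. The members as a set did not show a shared shift. Their medians were 0.546 and 0.399 in the untreated groups and -0.134 to 0.0576 in the groups with HU. The block thus describes many of these members poorly, and calls with it depend on that assumption. The fold changes are the same in both fits, and are log2 differences of FPKM + 1 averaged over both siRNAs unless said otherwise. A gene is called where its Benjamini-Hochberg adjusted p over 13088 genes is under 0.05. Every comparison with untreated cells uses the same 4 untreated libraries, so the comparisons are not independent of each other.

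HU for 4 h gave a positive fold change in all 34 tested p53 targets, against 53.5% of the 13088 genes, with a median of 0.39 against 0.01. In bulk RNA, more cells with a transcript and more transcript per cell cannot be told apart. None of the 34 was called in the limma fit without the block (0.107% of genes were called, 0.0382% higher and 0.0688% lower), where XPC had the lowest adjusted p at 0.117, while 19 members had an unadjusted p under 0.05 against 7.58% of genes. limma-voom also called 0, with 18 at an unadjusted p under 0.05. With the replicate block 10 members rose and none fell, against 1.6% of genes called in either direction and 0.848% called higher. This number rests on how the block is fitted. Only 1 member, SUSD6, was called with the block over all 8 groups (45 genes in all) or without the VE-822-alone libraries (72 genes in all). The 10 were BTG2, PLK2, XPC, DDB2, POLH, FAS, EDA2R, SESN2, TP53INP1 and SUSD6. Among these 10, adjusted p over all settings tried ran from 0.00184 to 0.999. Within pairs of 1 siRNA and 1 replicate number, 20 members were higher in HU in all 4 pairs, as were 13.4% of genes, and 12 members had all 4 HU libraries above all 4 untreated libraries, as had 2.11% of genes. The median was 0.17 within R1, with 30 members positive, and 0.47 within R2, with 34 positive. In the siSETD2 R1 pair, whose untreated library was the highest in CDKN1A, 21 of 34 were positive. Leaving that untreated library out, the block-free fit called members as higher, not all of them among the 10 named, and more of all genes. Calls of single members below are from the fits of all 16 libraries, unless another setting is named.

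**Figure D2:**
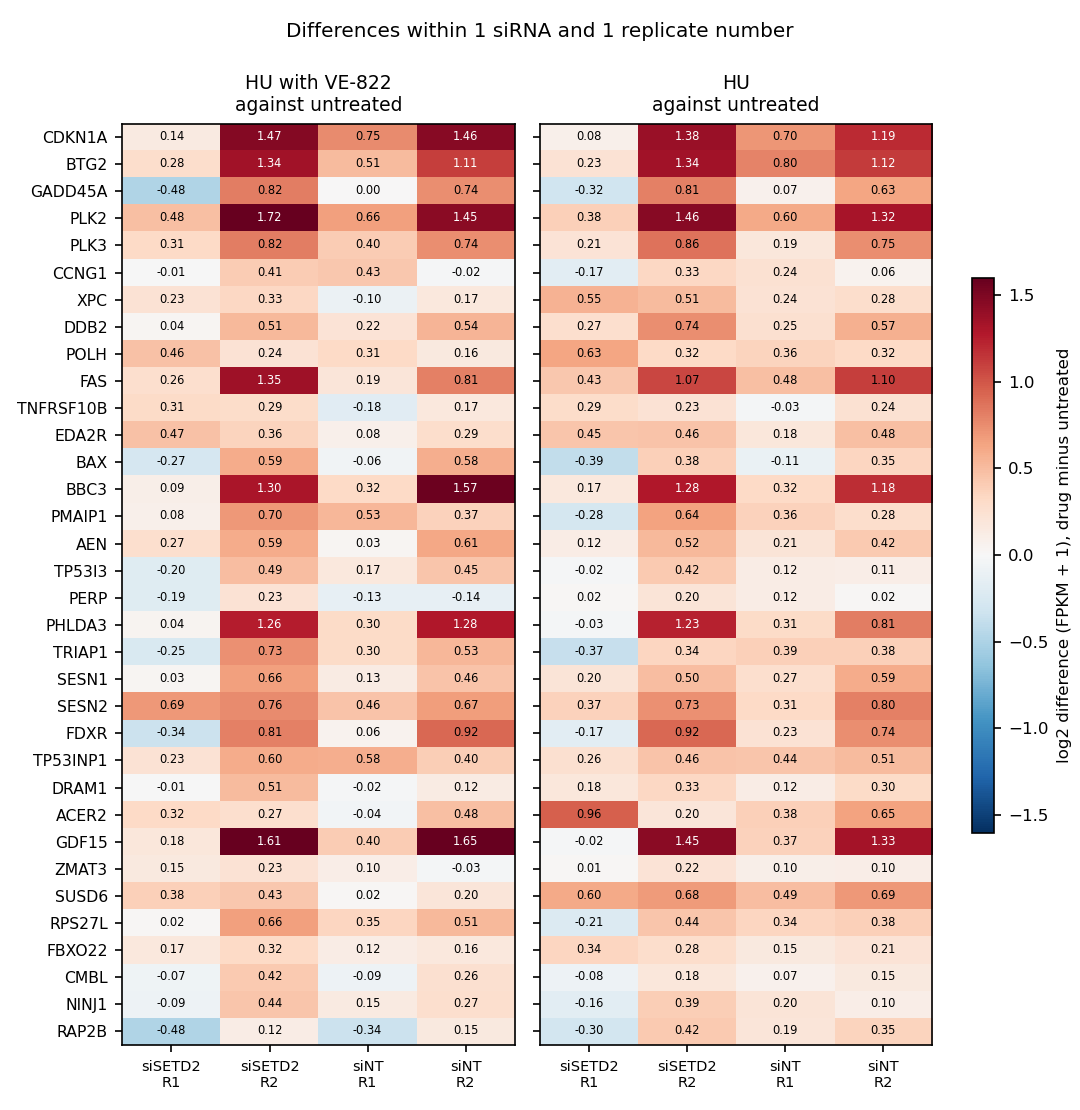
Log2 difference in FPKM + 1, drug minus untreated, for each of the 34 tested members within 1 siRNA and 1 replicate number, for HU with VE-822 on the left and HU on the right. The R2 columns are darker than the R1 columns: the medians over members within R2 are 0.53 and 0.47, against 0.15 and 0.17 within R1.

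Of 6 arrest and cell cycle genes, BTG2 and PLK2 rose with the block and the role had a median of 0.67. CDKN1A held 131 and 138 FPKM in siSETD2 cells in HU and 144 and 110 FPKM in siNT cells in HU (R1, R2), against 124 and 52.2 FPKM in untreated siSETD2 cells and 88.1 and 47.8 FPKM in untreated siNT cells. Its HU values overlapped the untreated ones through the siSETD2 R1 library at 124 FPKM, and with a fold change of 0.84 (SE 0.248) it was not called (adjusted p = 0.37, and 0.0607 with the block). BTG2, an antiproliferative regulator of mRNA decay, held 15.2 and 18.1 FPKM in siSETD2 cells in HU and 24.3 and 19.7 FPKM in siNT cells in HU, against 12.8 and 6.53 FPKM in untreated siSETD2 cells and 13.6 and 8.51 FPKM in untreated siNT cells. All its HU libraries were above all untreated ones, at 0.87 (SE 0.186, limma adjusted p = 0.153, and 0.0287 with the block). PLK2, a kinase of centriole duplication, held 49.97 and 62.9 FPKM in siSETD2 cells in HU and 40.9 and 58.9 FPKM in siNT cells in HU, against 38.3 and 22.2 FPKM in untreated siSETD2 cells and 26.6 and 23.0 FPKM in untreated siNT cells. It had the largest fold change of the members tested, 0.94 (SE 0.201, limma adjusted p = 0.153, and 0.0378 with the block), without overlap. PLK3, a related stress kinase, held 24.3 and 29.9 FPKM in siSETD2 cells in HU and 24.3 and 28.3 FPKM in siNT cells in HU, against 20.8 and 15.98 FPKM in untreated siSETD2 cells and 21.2 and 16.4 FPKM in untreated siNT cells. Its groups did not overlap either, yet it was not called (0.50, adjusted p = 0.225, and 0.0645 with the block). The cyclin CCNG1, a partner of the phosphatase PP2A, held 19.6 and 15.8 FPKM in siSETD2 cells in HU and 24.2 and 19.4 FPKM in siNT cells in HU, against 22.1 and 12.4 FPKM in untreated siSETD2 cells and 20.3 and 18.6 FPKM in untreated siNT cells, with overlap throughout. It differed by 0.11 and the stress sensor GADD45A by 0.30, and neither passed.

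All 3 repair and bypass genes rose with the block, and were called in no other setting tried. XPC, which recognises helix-distorting lesions, held 10.2 and 9.99 FPKM in siSETD2 cells in HU and 9.55 and 9.69 FPKM in siNT cells in HU, against 6.66 and 6.73 FPKM in untreated siSETD2 cells and 7.96 and 7.78 FPKM in untreated siNT cells. The groups were tight and did not overlap, and the difference was 0.394 within R1 and 0.395 within R2 (both together 0.395, SE 0.0749, limma adjusted p = 0.117, and 0.0177 with the block). DDB2, its partner at ultraviolet lesions, held 15.8 and 20.1 FPKM in siSETD2 cells in HU and 16.99 and 19.9 FPKM in siNT cells in HU, against 12.9 and 11.6 FPKM in untreated siSETD2 cells and 14.1 and 13.1 FPKM in untreated siNT cells. These did not overlap and differed by 0.46 (SE 0.111, limma adjusted p = 0.226, and 0.0377 with the block). POLH encodes polymerase eta, which copies past ultraviolet damage. It held 12.6 and 11.9 FPKM in siSETD2 cells in HU and 13.8 and 13.7 FPKM in siNT cells in HU, against 7.84 and 9.39 FPKM in untreated siSETD2 cells and 10.6 and 10.8 FPKM in untreated siNT cells. Its difference of 0.41 (SE 0.0824, limma adjusted p = 0.13, and 0.0292 with the block) was larger within R1, at 0.49, than within R2, at 0.32, in contrast to BTG2 and PLK2.

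**Figure D3:**
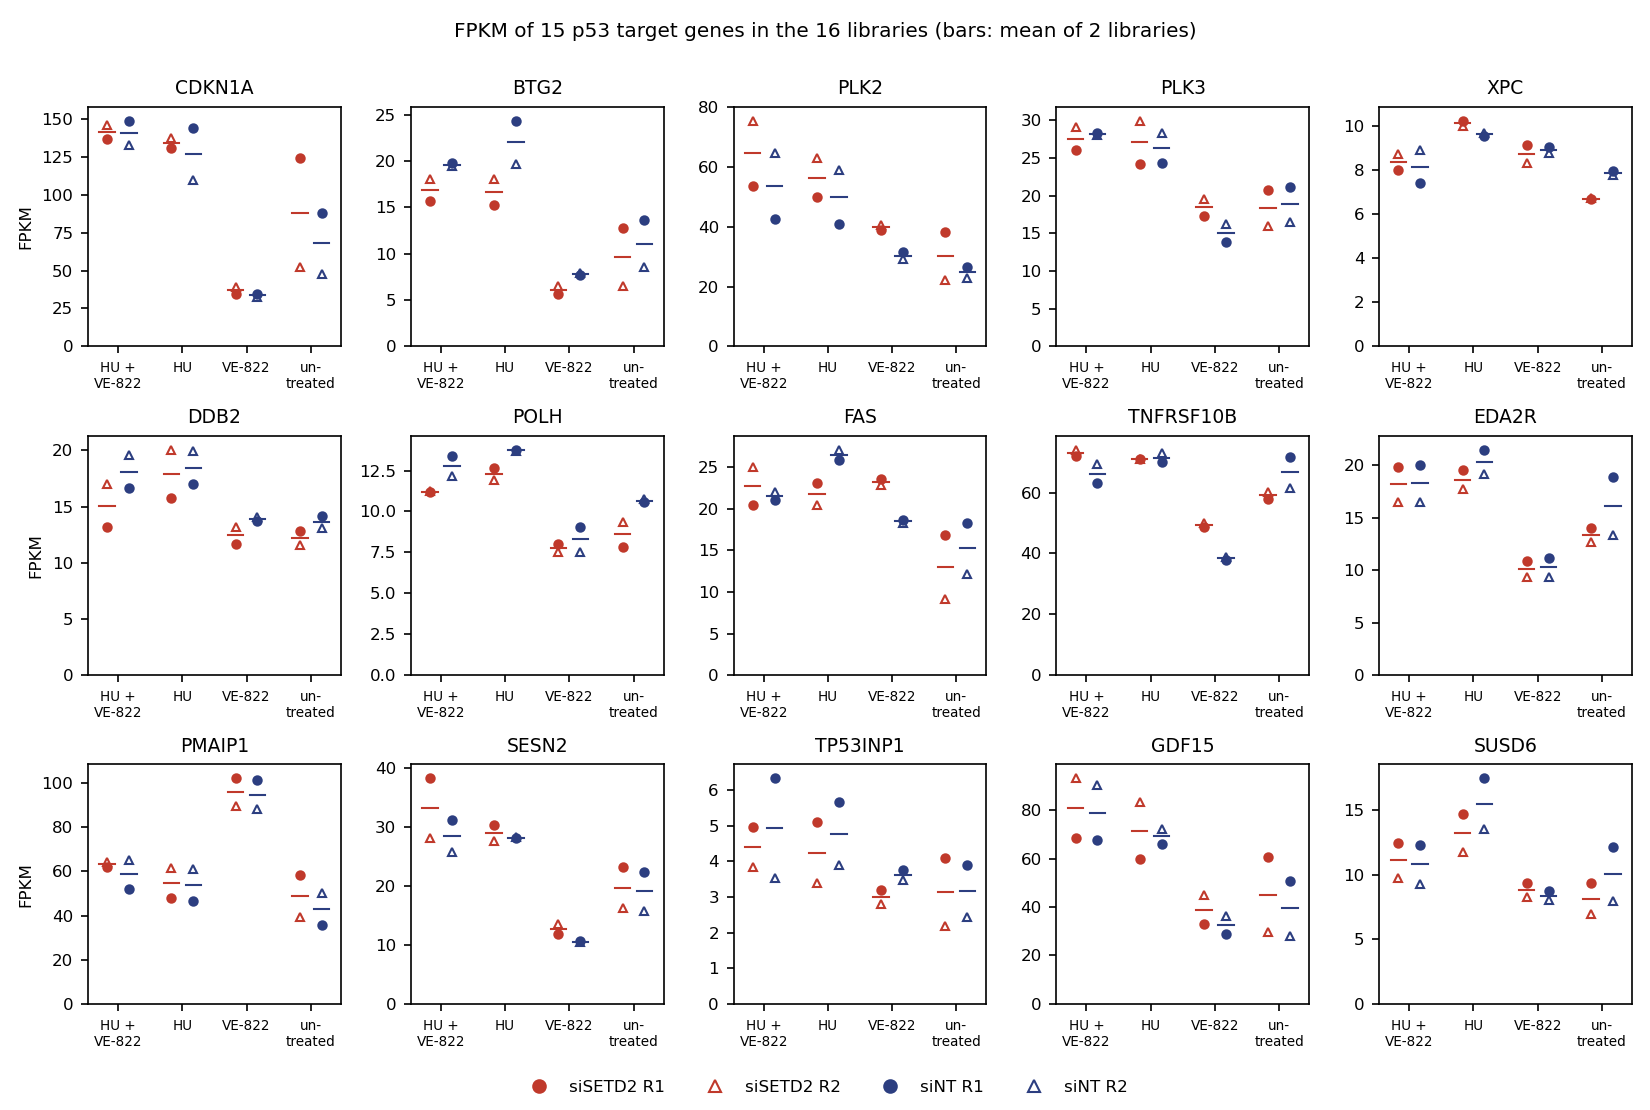
FPKM of 15 members in the 16 libraries, by treatment, with siSETD2 left of siNT, filled circles for R1, open triangles for R2 and a bar at the mean of the 2 libraries. CDKN1A lies between 110 and 149 FPKM in the 8 libraries with HU and between 32.8 and 39.1 FPKM with VE-822 alone, and its untreated libraries spread from 47.8 to 124 FPKM.

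Of the death receptors and their kin, 2 of 3 rose with the block, EDA2R in no other setting tried. FAS, the receptor of the FAS ligand, held 23.1 and 20.5 FPKM in siSETD2 cells in HU and 25.9 and 27.1 FPKM in siNT cells in HU, against 16.9 and 9.21 FPKM in untreated siSETD2 cells and 18.3 and 12.2 FPKM in untreated siNT cells. The groups were separate, at 0.77 (SE 0.169, limma adjusted p = 0.163, and 0.0351 with the block). EDA2R, a receptor of ectodysplasin A2, held 19.5 and 17.8 FPKM in siSETD2 cells in HU and 21.5 and 19.1 FPKM in siNT cells in HU, against 14.1 and 12.7 FPKM in untreated siSETD2 cells and 18.9 and 13.4 FPKM in untreated siNT cells. It overlapped through the untreated siNT R1 library and differed by 0.39 (SE 0.124, limma adjusted p = 0.409, and 0.047 with the block). TNFRSF10B, a receptor of the ligand TRAIL, lay at 70.2 to 72.9 FPKM in HU and at 57.9 to 71.7 FPKM in untreated cells, and did not pass (0.18, adjusted p = 0.631).

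None of the 8 mitochondrial and other apoptosis genes was called in HU, with or without the block, and their median was 0.22. BBC3 (PUMA), which frees BAX by binding BCL2 proteins, ranged from 7.24 to 9.89 FPKM in HU and from 2.84 to 6.33 FPKM in untreated cells. Its 4 HU libraries were all higher, at 0.74, but the differences ran from 0.17 to 1.28 over the 4 pairs (adjusted p = 0.402, and 0.139 with the block). The pleckstrin-domain inhibitor of AKT signalling, PHLDA3, differed by 0.58, the nuclease AEN by 0.32, the BH3-only gene PMAIP1 (NOXA) by 0.25 and TRIAP1 by 0.18. The quinone oxidoreductase TP53I3 differed by 0.16, the desmosomal membrane protein PERP by 0.09 and the pore former BAX by 0.06, the smallest value of the 34. PMAIP1 held 47.9 and 61.7 FPKM in siSETD2 cells in HU and 46.5 and 61.1 FPKM in siNT cells in HU, and its HU range overlapped that of untreated cells. PERP held 12.5 and 13.8 FPKM in siSETD2 cells in HU and 12.7 and 14.2 FPKM in siNT cells in HU, overlapping the untreated libraries as well.

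Of 6 metabolic, redox and autophagy genes, SESN2 and TP53INP1 rose with the block, and were called in no other setting tried. SESN2, a leucine sensor that restrains mTORC1, held 30.3 and 27.5 FPKM in siSETD2 cells in HU and 28.0 and 28.3 FPKM in siNT cells in HU, against 23.2 and 16.2 FPKM in untreated siSETD2 cells and 22.4 and 15.8 FPKM in untreated siNT cells. Its groups were separate, at 0.55 (SE 0.147, limma adjusted p = 0.301, and 0.019 with the block). TP53INP1, which promotes p53 phosphorylation and autophagy, held 5.11 and 3.38 FPKM in siSETD2 cells in HU and 5.65 and 3.90 FPKM in siNT cells in HU, against 4.09 and 2.19 FPKM in untreated siSETD2 cells and 3.89 and 2.44 FPKM in untreated siNT cells. R1 exceeded R2 in each group, so the values overlapped while every pair was higher in HU, at 0.42 (SE 0.208, limma adjusted p = 0.715, and 0.0266 with the block). Without the untreated siSETD2 R2 library its difference was 0.25. The ceramidase ACER2 held 3.66 and 2.22 FPKM in siSETD2 cells in HU and 4.07 and 2.95 FPKM in siNT cells in HU, against 1.39 and 1.81 FPKM in untreated siSETD2 cells and 2.90 and 1.52 FPKM in untreated siNT cells. It overlapped through the untreated siNT R1 library, differed by 0.55 and was not called (adjusted p = 0.36, and 0.0784 with the block). The ferredoxin reductase FDXR differed by 0.43, SESN1, a relative of SESN2, by 0.39, and the lysosomal membrane gene DRAM1 by 0.23.

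Of 8 other targets, SUSD6 rose with the block. SUSD6, a membrane protein, held 14.6 and 11.7 FPKM in siSETD2 cells in HU and 17.4 and 13.5 FPKM in siNT cells in HU, against 9.32 and 6.95 FPKM in untreated siSETD2 cells and 12.1 and 7.95 FPKM in untreated siNT cells. Every pair differed by 0.49 to 0.69, and the averaged difference was 0.62 (SE 0.158, limma adjusted p = 0.273, and 0.00184 with the block). SUSD6 was also the member called with the block within siSETD2 (0.64, limma adjusted p = 0.0332, 0.199% of genes called) and within siNT cells (0.59, limma adjusted p = 0.0447, 0.168% of genes called). GDF15 held 59.8 and 83.2 FPKM in siSETD2 cells in HU and 66.1 and 72.2 FPKM in siNT cells in HU, against 60.5 and 29.9 FPKM in untreated siSETD2 cells and 50.9 and 28.1 FPKM in untreated siNT cells. Its difference was 0.18 within R1 and 1.39 within R2, and it was not called (0.78, adjusted p = 0.413, and 0.149 with the block). The F-box gene FBXO22 held 6.79 and 6.32 FPKM in siSETD2 cells in HU and 6.59 and 6.39 FPKM in siNT cells in HU, against 5.16 and 5.01 FPKM in untreated siSETD2 cells and 5.82 and 5.37 FPKM in untreated siNT cells. Its groups were separate at a small difference of 0.25 (adjusted p = 0.37, and 0.0886 with the block). The small GTPase RAP2B held 5.61 and 6.82 FPKM in siSETD2 cells in HU and 6.21 and 6.02 FPKM in siNT cells in HU, against 7.13 and 4.84 FPKM in untreated siSETD2 cells and 5.30 and 4.51 FPKM in untreated siNT cells, with overlap. The remaining 5, the ribosomal protein relative RPS27L, RAP2B, the membrane rupture protein NINJ1, the RNA-binding zinc finger gene ZMAT3 and the hydrolase CMBL, differed by 0.24, 0.17, 0.13, 0.11 and 0.08.

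HU with VE-822 was set against the same untreated libraries. Of 34 members 32 had a positive fold change, with a median of 0.31 against 0.02 over all genes, and the 2 negative ones were RAP2B at -0.14 and PERP at -0.06. The limma fit without the block called none of them (0.0382% of genes, 0.0229% higher and 0.0153% lower), with 16 at an unadjusted p under 0.05 against 13.6% of genes, and limma-voom called 0, with 15 at an unadjusted p under 0.05. With the block 10 members rose and none fell, against 7.3% of genes called and 4.07% called higher. With the block over all 8 groups 6 were called (413 genes in all), and with the block but without the VE-822-alone libraries 4 (413 genes in all). The 10 were CDKN1A, BTG2, PLK2, PLK3, POLH, FAS, SESN2, TP53INP1, GDF15 and SUSD6, with adjusted p over all settings between 0.00574 and 0.861. In all 4 pairs 19 members were higher (15.4% of genes), and in 11 members the groups did not overlap (4% of genes). The median was 0.15 within R1 and 0.53 within R2. Leaving out the untreated siSETD2 R1 library, the block-free fit called members as higher, not all of them among the 10 named, and more of all genes. Calls of single members below are from the fits of all 16 libraries, with and without the block.

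In HU with VE-822, CDKN1A held 137 and 146 FPKM in siSETD2 cells and 149 and 133 FPKM in siNT cells, all above the untreated maximum of 124 FPKM, though not after scaling to library totals. The difference was 0.96 (SE 0.248, limma adjusted p = 0.13, and 0.019 with the block). PLK2 held 53.7 and 75.4 FPKM in siSETD2 cells and 42.6 and 64.6 FPKM in siNT cells under both drugs, against at most 38.3 FPKM in untreated cells. It differed by 1.08 (SE 0.201, limma adjusted p = 0.0678, and 0.0126 with the block), the largest value in this comparison. GDF15 held 68.6 and 93.1 FPKM in siSETD2 cells and 67.5 and 90.5 FPKM in siNT cells under both drugs, against at most 60.5 FPKM in untreated cells. All 4 libraries were higher, and it differed by 0.96 (SE 0.251, limma adjusted p = 0.132, and 0.0439 with the block). BTG2 held 15.7 and 18.1 FPKM in siSETD2 cells in HU with VE-822 and 19.8 and 19.5 FPKM in siNT cells in HU with VE-822, against at most 13.6 FPKM in untreated cells (0.81, limma adjusted p = 0.019 with the block). PLK3 held 26.05 and 29.1 FPKM in siSETD2 cells in HU with VE-822 and 28.3 and 28.1 FPKM in siNT cells in HU with VE-822, against at most 21.2 FPKM in untreated cells (0.57, limma adjusted p = 0.0203 with the block). Both kept all 4 libraries above the untreated range, with tight values under both drugs.

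FAS and POLH were likewise separate from untreated cells under both drugs. FAS held 20.5 and 25.02 FPKM in siSETD2 cells in HU with VE-822 and 21.1 and 22.04 FPKM in siNT cells in HU with VE-822, against at most 18.3 FPKM in untreated cells (0.65, limma adjusted p = 0.03 with the block). POLH held 11.2 and 11.2 FPKM in siSETD2 cells in HU with VE-822 and 13.4 and 12.2 FPKM in siNT cells in HU with VE-822, against at most 10.8 FPKM in untreated cells (0.29, limma adjusted p = 0.044 with the block). The sestrin SESN2 was separate too, and TP53INP1 and SUSD6 overlapped untreated cells while higher in each pair. SESN2 held 38.2 and 28.1 FPKM in siSETD2 cells in HU with VE-822 and 31.1 and 25.7 FPKM in siNT cells in HU with VE-822, against at most 23.2 FPKM in untreated cells (0.65, limma adjusted p = 0.00574 with the block). TP53INP1 held 4.97 and 3.83 FPKM in siSETD2 cells in HU with VE-822 and 6.32 and 3.54 FPKM in siNT cells in HU with VE-822, against 2.19 to 4.09 FPKM in untreated cells (0.45, limma adjusted p = 0.00997 with the block). Its difference was 0.28 without the untreated siSETD2 R2 library and 0.28 without the siNT R1 library in HU with VE-822. SUSD6 differed by 0.26 (limma adjusted p = 0.504, and 0.0428 with the block), with its library values given beside those of HU below. Its difference was 0.12 without the untreated siNT R2 library (adjusted p = 0.861), 0.16 without the untreated siSETD2 R2 library or without the siNT R1 library in HU with VE-822, and 0.40 without the untreated siNT R1 library. SESN2 was also called with the block within siSETD2 cells (0.73, limma adjusted p = 0.0359, 1.04% of genes called), and no member was called within siNT cells (0.0306% of genes). Of the repair genes DDB2 held 13.2 and 16.97 FPKM in siSETD2 cells in HU with VE-822 and 16.6 and 19.6 FPKM in siNT cells in HU with VE-822 and overlapped untreated cells, without a call (0.33, adjusted p = 0.232, and 0.0569 with the block). EDA2R held 19.9 and 16.5 FPKM in siSETD2 cells in HU with VE-822 and 20.0002 and 16.6 FPKM in siNT cells in HU with VE-822, also overlapping (0.30, adjusted p = 0.324, and 0.0548 with the block). FBXO22 held 5.93 and 6.48 FPKM in siSETD2 cells in HU with VE-822 and 6.38 and 6.12 FPKM in siNT cells in HU with VE-822, above all untreated libraries, though not after scaling to library totals, and not called (0.19, adjusted p = 0.275, and 0.0976 with the block). As in HU alone, 0 of the 8 mitochondrial and other apoptosis genes passed, BBC3 at 0.82 (adjusted p = 0.157, and 0.0538 with the block) and PHLDA3 at 0.72 (adjusted p = 0.187, and 0.0666 with the block) being the largest. TNFRSF10B held 72.1 and 74.1 FPKM in siSETD2 cells in HU with VE-822 and 62.99 and 69.5 FPKM in siNT cells in HU with VE-822. PMAIP1 held 62.1 and 64.3 FPKM in siSETD2 cells in HU with VE-822 and 52.3 and 65.1 FPKM in siNT cells in HU with VE-822. PERP held 10.7 and 14.02 FPKM in siSETD2 cells in HU with VE-822 and 10.6 and 12.6 FPKM in siNT cells in HU with VE-822. None of these 3 passed, at 0.15, 0.42 and -0.06.

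**Figure D4:**
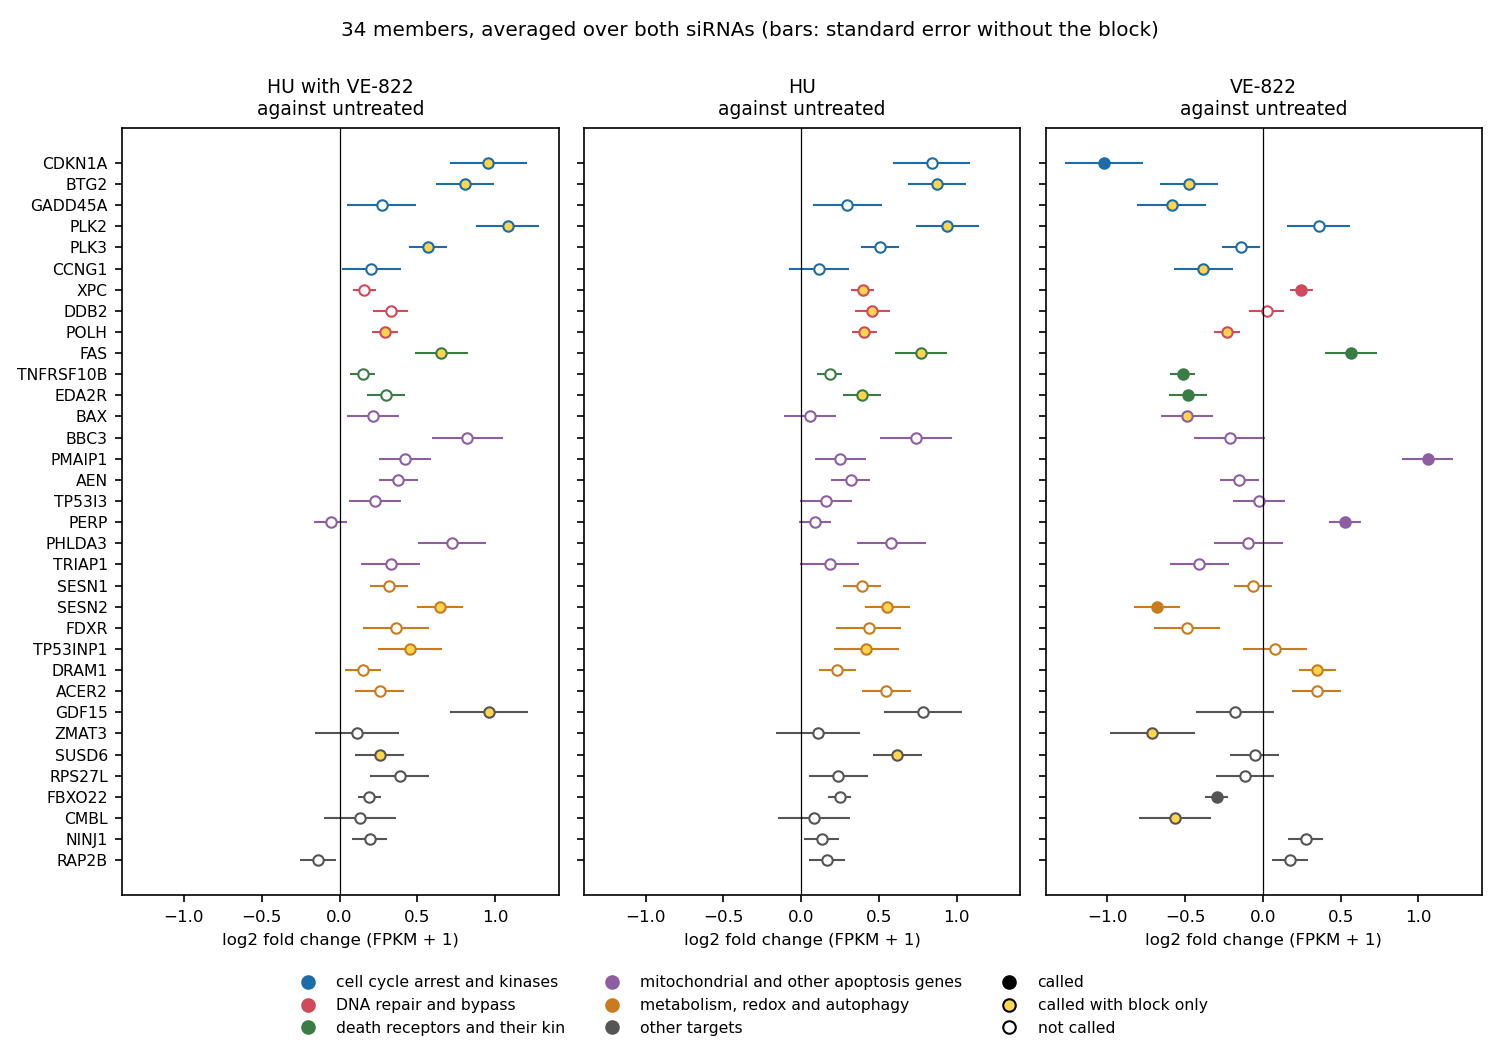
Log2 fold change of FPKM + 1 with its standard error for the 34 tested members, coloured by role, in HU with VE-822, HU and VE-822 alone, each against the same 4 untreated libraries and averaged over both siRNAs. Filled points were called without the block and yellow ones with the block, and the HU columns lie to the right of 0 in 32 and 34 members while VE-822 alone lies to the left in 23.

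Adding VE-822 to HU gave 1 call among the p53 targets, SUSD6, which was lower and was called with the block. HU with VE-822 against HU gave 18 positive and 16 negative fold changes with a median of 0.02, against 0.01 over all genes. No member was called without the block (0.00764% of genes), with 3 at an unadjusted p under 0.05 against 8.34% of genes, and limma-voom called 0, also with 3 at an unadjusted p under 0.05. In all 4 pairs 6 members were higher (17.7% of genes) and 5 lower (16.5%), shares close to those of all genes. SUSD6 held 12.5 and 9.72 FPKM in siSETD2 cells and 12.3 and 9.24 FPKM in siNT cells under both drugs, against 14.6 and 11.7 FPKM in siSETD2 cells and 17.4 and 13.5 FPKM in siNT cells in HU alone. The groups overlapped, but it was lower in each pair and fell with the block (-0.36, SE 0.158, limma adjusted p = 0.0345, and 0.585 without the block, with 1.31% of genes called), at up to 0.913 over the other settings. XPC held 7.98 and 8.71 FPKM in siSETD2 cells and 7.39 and 8.91 FPKM in siNT cells under both drugs, all below the HU minimum of 9.55 FPKM, and was not called (-0.24, SE 0.0749, adjusted p = 0.45, and 0.102 with the block). RAP2B held 4.82 and 5.36 FPKM in siSETD2 cells and 3.98 and 5.12 FPKM in siNT cells under both drugs, against 5.61 to 6.82 FPKM in HU alone, likewise without overlap and without a call (-0.30, SE 0.115, adjusted p = 0.523, and 0.185 with the block). ACER2 held 1.99 and 2.38 FPKM in siSETD2 cells and 2.80 and 2.52 FPKM in siNT cells under both drugs, overlapping HU alone, and differed by -0.29 (adjusted p = 0.707). Non-overlapping lower groups were found in 2.87% of genes and non-overlapping higher ones in 3.84%, among them 1 member, BAX, at 36.6 to 41.3 FPKM under both drugs and 33.5 to 35.6 FPKM in HU, which did not hold after scaling to library totals. The 3 repair and bypass genes and the 3 death receptors and their kin were all negative, at -0.24 to -0.03, and 7 of the 8 mitochondrial and other apoptosis genes were positive, at up to 0.17, with none called.

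VE-822 alone moved p53 targets in both directions. Of 34 members 4 rose and 5 fell, which is 26.5% called against 24.7% of all genes, so the share was near that of genes in general. XPC, FAS, PMAIP1 and PERP rose, and CDKN1A, TNFRSF10B, EDA2R, SESN2 and FBXO22 fell. The median was -0.15 against -0.03 over all genes, with 23 members negative, but -0.42 within R1 and 0.12 within R2, so its direction differed between R1 and R2. The untreated libraries differed in these genes between R1 and R2, and the R1 minus R2 differences of the VE-822-alone libraries did not run with those of untreated cells, at correlations of -0.05 to 0.02. With the block 5 members rose and 12 fell, against 44.9% of genes called, and the added ones were DRAM1, higher, and BTG2, GADD45A, CCNG1, POLH, BAX, ZMAT3 and CMBL, lower. Without the block DRAM1 was also called by limma-voom (adjusted p = 0.032). It was called after scaling to library totals too (limma adjusted p = 0.0475), and with a filter at 5 FPKM (limma adjusted p = 0.0486). DRAM1 lay at 7.04 to 10.9 FPKM in VE-822, against 6.43 to 6.91 FPKM in untreated cells (0.35), and overlapped after scaling. GADD45A was also called without the block after scaling (limma adjusted p = 0.039). The number of members called changed when single libraries were left out, and so did the number of all genes called. By limma-voom 10 members were called, with 19 at an unadjusted p under 0.05 against 38.9% of genes. Within siSETD2 cells limma-voom called 4, with 10 at an unadjusted p under 0.05 (29.8% of genes). Within siNT cells it called 2, with 9 at an unadjusted p under 0.05 (20% of genes). The groups did not overlap in 6 higher members (14.6% of genes) and 9 lower ones (16.5% of genes). After scaling to library totals 3 higher members did not overlap (12.6% of genes).

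CDKN1A held 34.8 and 39.1 FPKM in siSETD2 cells in VE-822 and 34.4 and 32.8 FPKM in siNT cells in VE-822, against 124 and 52.2 FPKM in untreated siSETD2 cells and 88.1 and 47.8 FPKM in untreated siNT cells. The 4 VE-822 libraries lay close together and all below the untreated ones, at -1.02 (SE 0.248, limma adjusted p = 0.0144). The call was lost without the untreated siNT R1 library (-0.80, limma adjusted p = 0.0592) and without the siSETD2 VE-822 R1 library (-0.98, limma adjusted p = 0.0524). PMAIP1, which neutralises MCL1, moved the other way. It held 102 and 89.7 FPKM in siSETD2 cells in VE-822 and 101 and 88.1 FPKM in siNT cells in VE-822, against 58.5 and 39.2 FPKM in untreated siSETD2 cells and 35.9 and 50.1 FPKM in untreated siNT cells. Its groups were far apart, at 1.06 (SE 0.165, limma adjusted p = 0.00152), and it was called within siSETD2 cells and within siNT cells too (limma adjusted p = 0.0249 and 0.0195).

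PERP held 20.2 and 19.1 FPKM in siSETD2 cells in VE-822 and 17.8 and 16.5 FPKM in siNT cells in VE-822, against 12.3 and 11.8 FPKM in untreated siSETD2 cells and 11.6 and 14.0 FPKM in untreated siNT cells (0.53, SE 0.103, limma adjusted p = 0.00494). FAS held 23.5 and 22.9 FPKM in siSETD2 cells in VE-822 and 18.7 and 18.3 FPKM in siNT cells in VE-822, against 9.21 to 18.3 FPKM in untreated cells (0.57, SE 0.169, limma adjusted p = 0.0329). XPC held 9.14 and 8.31 FPKM in siSETD2 cells in VE-822 and 9.06 and 8.74 FPKM in siNT cells in VE-822, against 6.66 to 7.96 FPKM in untreated cells (0.25, SE 0.0749, limma adjusted p = 0.0349). None of these 3 overlapped, though FAS was separated by a narrow gap at 18.3 FPKM and overlapped after scaling to library totals, and the calls of FAS and XPC depended on single libraries. FAS was not called without any one of the untreated R2 libraries of either siRNA or the 4 VE-822 libraries, at limma adjusted p of up to 0.104, and its difference was 0.36 without the untreated siSETD2 R2 library. XPC was not called without any one of the untreated siSETD2 R1, untreated siNT R1 and R2, siNT HU R1 and R2 and 4 VE-822 libraries, at up to 0.125. Scaled to library totals, FAS had an adjusted p of 0.0513 and XPC of 0.0658, and without a filter on low values FAS had 0.0697.

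The other genes that fell in VE-822 were 4 of different roles. TNFRSF10B held 48.6 and 50.1 FPKM in siSETD2 cells in VE-822 and 38.0 and 38.8 FPKM in siNT cells in VE-822, against 57.9 and 60.3 FPKM in untreated siSETD2 cells and 71.7 and 61.6 FPKM in untreated siNT cells (-0.52, SE 0.0798, limma adjusted p = 0.00147). SESN2 held 11.8 and 13.6 FPKM in siSETD2 cells in VE-822 and 10.6 and 10.5 FPKM in siNT cells in VE-822, against 15.8 to 23.2 FPKM in untreated cells (-0.68, SE 0.147, limma adjusted p = 0.00836). EDA2R held 10.9 and 9.33 FPKM in siSETD2 cells in VE-822 and 11.2 and 9.38 FPKM in siNT cells in VE-822, against 12.7 to 18.9 FPKM in untreated cells (-0.48, SE 0.124, limma adjusted p = 0.0182). FBXO22 held 4.66 and 4.003 FPKM in siSETD2 cells in VE-822 and 4.21 and 3.78 FPKM in siNT cells in VE-822, against 5.01 to 5.82 FPKM in untreated cells, and like the others lay below the untreated range (-0.30, SE 0.0728, limma adjusted p = 0.0147). EDA2R and FBXO22 were not called without the untreated siNT R1, the siNT VE-822 R2 or the siSETD2 VE-822 R2 library, at adjusted p of up to 0.0736 and 0.0702. SESN2, TNFRSF10B, PMAIP1 and PERP were called in every setting tried. The drop in TNFRSF10B was -0.78 in siNT cells (limma adjusted p = 0.00346, 5.23% of genes called), where it was 1 of 3 members called with PMAIP1 and FBXO22, while in siSETD2 cells FAS, PMAIP1 and PERP were the 3 called (10.9% of genes, 5.79% higher and 5.16% lower). In siNT cells 2.88% of genes were called lower. The numbers of members called within siNT and within siSETD2 cells changed when single libraries were left out, as did those of all genes. The difference between the siRNAs for TNFRSF10B, 0.52 (SE 0.16), was not called (adjusted p = 1, and 0.743 with the block).

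The other members given by library were not called in VE-822 without the block, and the arrest genes BTG2 and PLK2 had fold changes of opposite sign. BTG2 held 5.64 and 6.56 FPKM in siSETD2 cells in VE-822 and 7.72 and 7.88 FPKM in siNT cells in VE-822, overlapping untreated cells (-0.47, adjusted p = 0.0865, and 0.0366 with the block). PLK2 held 38.95 and 40.7 FPKM in siSETD2 cells in VE-822 and 31.5 and 29.1 FPKM in siNT cells in VE-822, overlapping untreated cells and below every HU library (0.36, adjusted p = 0.21, and 0.147 with the block). PLK3 held 17.3 and 19.6 FPKM in siSETD2 cells in VE-822 and 13.8 and 16.2 FPKM in siNT cells in VE-822 and was not called (-0.14, adjusted p = 0.411). CCNG1, whose VE-822 values are given with the siRNA comparison, differed by -0.38 (adjusted p = 0.165, and 0.0201 with the block). Of the repair genes, DDB2 held 11.7 and 13.2 FPKM in siSETD2 cells in VE-822 and 13.7 and 14.1 FPKM in siNT cells in VE-822 and was not called (0.02, adjusted p = 0.892). POLH held 8.04 and 7.498 FPKM in siSETD2 cells in VE-822 and 9.05 and 7.55 FPKM in siNT cells in VE-822, overlapping untreated cells (-0.23, adjusted p = 0.0639, and 0.0306 with the block). GDF15 held 33.1 and 44.9 FPKM in siSETD2 cells in VE-822 and 28.9 and 36.3 FPKM in siNT cells in VE-822, below both untreated R1 libraries and, within each siRNA, above untreated R2 (-0.18, adjusted p = 0.63). The last 4 members with library values were not called with or without the block. TP53INP1 held 3.19 and 2.79 FPKM in siSETD2 cells in VE-822 and 3.77 and 3.48 FPKM in siNT cells in VE-822 (0.08). ACER2 held 2.68 and 2.71 FPKM in siSETD2 cells in VE-822 and 2.77 and 2.34 FPKM in siNT cells in VE-822 (0.34). SUSD6 held 9.31 and 8.23 FPKM in siSETD2 cells in VE-822 and 8.71 and 8.02 FPKM in siNT cells in VE-822 (-0.05), all below its HU values. RAP2B held 5.996 and 6.13 FPKM in siSETD2 cells in VE-822 and 6.29 and 6.37 FPKM in siNT cells in VE-822 (0.17), a narrow range inside that of untreated cells. Of the members called with the block, BTG2, CCNG1, BAX and CMBL moved by over 1.5 times without the untreated siSETD2 R1 library. Their fold changes were then -0.25, -0.19, -0.29 and -0.37, against -0.47, -0.38, -0.48 and -0.57 with it. Without the untreated siSETD2 R2 library CCNG1 was at -0.58 and called (limma adjusted p = 0.0275).

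None of the 34 tested members was called between siSETD2 and siNT cells with all 16 libraries included. Averaged over the 4 treatments, 16 members were positive and 18 negative, with a median of -0.01 for siSETD2 against siNT and -0.01 over all genes, and scaling to library totals turned this to 20 positive and 14 negative. None of the 34 was called by limma with or without the block (0.13% of genes without it, 0.0306% higher, and 3.88% with it). Without the block 2 had an unadjusted p under 0.05 (10% of genes), and with it 7 had (21% of genes). limma-voom called 0, with 2 at an unadjusted p under 0.05. The 2 by limma without the block were POLH, at -0.17 (SE 0.0583, adjusted p = 0.316), and DRAM1, at 0.19 (SE 0.0837, adjusted p = 0.468), named after their values were seen. CCNG1, at -0.24 (adjusted p = 0.61), held 21.97 and 16.8 FPKM in siSETD2 cells in HU with VE-822 and 27.7 and 18.4 FPKM in siNT cells in HU with VE-822, and 13.7 and 11.04 FPKM in siSETD2 cells in VE-822 and 16.7 and 13.3 FPKM in siNT cells in VE-822. The largest differences were BTG2 at -0.28 (SE 0.132, adjusted p = 0.523) and PLK2 at 0.27 (SE 0.142, adjusted p = 0.581). Within each treatment 0 of 34 were called with or without the block, though leaving out the untreated siSETD2 R2 library changed the calls in untreated cells. At most 1 member had an unadjusted p under 0.05 by limma without the block. By limma-voom at most 2 had, in VE-822 (2.78% of genes), and with the block at most 3, in untreated cells (11.4% of genes). None of the differences in response between siSETD2 and siNT cells was called for HU, for HU with VE-822, for HU with VE-822 against HU or for VE-822. In each, 0 or 1 members had an unadjusted p under 0.05 by limma without the block and by limma-voom. With the block at most 2 had, for VE-822 (5.85% of genes). The SE of a member's difference in response was 0.146 to 0.544 on the log2 scale, so modest differences between the siRNAs were not detectable.

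Some members answer other pathways as well. The 6 that are also known targets of ATF4 or CHOP (SESN2, GDF15, TNFRSF10B, GADD45A, PMAIP1 and BBC3) had a median of 0.43 in HU, 0.53 in HU with VE-822 and -0.37 in VE-822, each against untreated cells. The 4 that are also early response genes (BTG2, PLK2, PLK3 and GADD45A) had medians of 0.69, 0.69 and -0.31. With the block, SESN2 of the 6 rose in HU, and SESN2 and GDF15 rose with both drugs. Of the 4, BTG2 and PLK2 rose in HU with the block, and PLK3 joined them with both drugs. In VE-822 the 6 did not move together. PMAIP1 rose (1.06) and SESN2 (-0.68) and TNFRSF10B (-0.52) fell without the block, and GADD45A (-0.59) fell with it. Of the 4, BTG2 (-0.47) and GADD45A fell in VE-822 with the block, and PLK2 had a positive fold change without a call. The part of these pathways in the values was not tested.

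The regulators of p53 were given by a list of 9 genes, of which 8 were tested and CDKN2A, which encodes the MDM2 inhibitor ARF, was at most 0.0384 FPKM. PPM1D, the phosphatase WIP1 that switches p53 off and is itself a p53 target, rose in HU without the block, at 13.4 to 17.2 FPKM in HU against 7.16 to 9.86 FPKM in untreated cells (0.70, SE 0.101, limma adjusted p = 0.0313, and 0.00427 with the block). The block-free call was lost without any one library other than the untreated siSETD2 ones, at adjusted p of 0.0523 to 0.218. In HU with VE-822 it lay at 12.2 to 15.4 FPKM (0.59, limma adjusted p = 0.0515, and 0.00638 with the block), and in VE-822 alone it fell, at 5.82 to 8.10 FPKM (-0.36, limma adjusted p = 0.0269). That call was lost without any one of the untreated R1 libraries of either siRNA, the siSETD2 VE-822 libraries and the siNT VE-822 R2 library, at up to 0.0975. In HU with VE-822 PPM1D was called without the untreated siSETD2 R1 library (0.69, limma adjusted p = 0.0102). MDM2 lay at 7.06 to 10.0 FPKM in HU with VE-822, 7.31 to 9.67 FPKM in HU and 3.31 to 3.51 FPKM in VE-822, against 3.95 to 8.26 FPKM in untreated cells, and was not called without the block (adjusted p = 0.378, 0.595 and 0.052). With the block it fell in VE-822 (-0.61, limma adjusted p = 0.0051) and was not called in HU with VE-822 or HU (adjusted p = 0.0783 and 0.11). Without the block it was called in VE-822 when the untreated R2 library of siSETD2 or of siNT was left out (limma adjusted p = 0.00691 and 0.0215). Of 14 other known p53 targets 8 were tested. In HU all 8 were positive with a median of 0.22 and in HU with VE-822 5 were, with a median of 0.13, and none was called, though with the block KITLG rose in HU with VE-822 (0.68, limma adjusted p = 0.043). In VE-822 KITLG, the ligand of the receptor KIT, rose (1.53, limma adjusted p = 0.00388). SFN, a 14-3-3 protein, fell (-0.55, limma adjusted p = 0.0479), as did PIDD1, a scaffold of the PIDDosome (-0.52, limma adjusted p = 0.0443). The call of SFN was lost without any one library other than the untreated siSETD2 R2 library and the 4 of HU with VE-822 (up to 0.149), and that of PIDD1 without any one other than the untreated siNT R2 library and the siSETD2 libraries with HU (up to 0.164).

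Some values carry limits of counting. The tested members had between 79 fragments (ACER2) and 13357 fragments (CDKN1A) per library. In 13 of the 37 members an exon was shared with a gene on the opposite strand, and the use of strand is not given in the sources used here. On that strand 1 member, XPC, shared over 20% of its exon length, with AC093495.1 (23.8%, mean 0.637 FPKM). It also shared 8.61% with AC090004.1 (mean 1.64 FPKM) and 6.63% with LSM3 (mean 7.12 FPKM), and FBXO22 shared 16.2% with NRG4 (mean 0.116 FPKM). On the same strand TIGAR shared 42.6% of its exon length with AC008012.1 (mean 0.00271 FPKM). PHLDA3 shared 19.1% with AC096677.2 and BBC3 2.39% with MIR3191, each with a mean of 0 FPKM. RPS27L has a close relative, RPS27, with which reads could be shared, so its values are uncertain.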

How the data were processed

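RNA of 16 U2OS libraries was measured. The authors deposited 1 table of FPKM for 58735 genes, and per the submitters' processing notes FastQC, STAR 2.6.1d, featureCounts 1.5.0-p3, DESeq2 1.26.0 and build hg38 were used upstream. FPKM times exon length gave whole fragments within 0.01 for 100% of values, and the deposited FPKM were already scaled between libraries, by 0.94 to 1.07 times the library total. Names, positions and exon lengths came from GENCODE 29 (GRCh38).

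Values were analysed as log2(FPKM + 1), a pseudocount that understates changes of low genes, by limma-trend (R 4.3.3, limma 3.58.1). The 13088 genes averaging 1 FPKM or more were tested in 1 model with 8 group means (8 residual degrees of freedom, and 7 with the replicate block). Within 1 comparison, p-values were adjusted over these genes by the Benjamini-Hochberg method. The pairing of R1 and R2 comes from the data (all 15 pairs of the 6 groups correlate, at 0.363 or more). The labels do not tie equal numbers to a culture or day.

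The members and lists were chosen with earlier results of these data known. Values in every library are given for CDKN1A, for members called in any comparison without the block, for members called with the block in HU, in HU with VE-822 (against untreated or HU) or in siSETD2, and for the 3 largest fold changes in these, or else as ranges. Alternatives were the pseudocount, the filter, the scaling, limma-voom, the block, and leaving out libraries. Values of some genes in the lists of regulators and other targets are not reported here.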

Additional observations from a re-analysis of the deposited data

How the results depend on the processing

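None of the 38 fold changes of members called with or without the block reversed its direction in any setting tried. The number of members called changed with the replicate block and with single libraries. The number of genes called among all genes is given beside each count. In HU against untreated, 10 were called with the block in 6 groups (209 genes) and 1 when the block spanned 8 groups (45 genes). With the block but without the VE-822-alone libraries 1 was called (72 genes). Within siSETD2 and siNT cells the block in 6 groups gave 1 each (26 and 22 genes), against 0 without a block. In HU with VE-822 against untreated the counts were 10, 6 and 4 in these settings (956, 413 and 413 genes). There was 1 after scaling to library totals (27 genes), and 1 within siSETD2 cells with the block in 6 groups (136 genes). HU with VE-822 against HU gave 1 with the block in 6 groups (172 genes). VE-822 against untreated, with 9 calls (3237 genes), gave 17 with the block in 6 groups (5874 genes) and 16 with the block over 8 (5122 genes). Within siSETD2 cells VE-822 gave 10 and 9 (4364 and 3421 genes), and 1 without a filter on low values (1470 of a larger number tested). Within siNT cells it gave 9 and 7 (2780 and 1944 genes). These stand against 3 in each without the block (1433 genes in siSETD2 and 684 in siNT cells). In VE-822 the number of all genes called thus rose with the block along with that of the members. After scaling to library totals, 3 members were higher without overlap in VE-822 (12.6% of genes) and 0 in HU with VE-822 against HU (3.93% of genes).

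Leaving out 1 library at a time gave 0 to 4 members in HU against untreated, 0 to 10 in HU with VE-822 against untreated, 5 to 16 in VE-822, 0 to 7 in VE-822 within siSETD2 cells, 0 to 5 within siNT cells, and 0 to 1 in siSETD2 against siNT without drug. Where a group then has 1 library, that library is assumed to vary like the other groups. The other comparisons stayed at 0 members. Count models (edgeR and DESeq2 on recovered fragments) were not run. Scaling to library totals moved the median of all genes by under 0.1. With 2 libraries a group, and untreated libraries that differed in these genes, the size of a change from untreated cells is known only loosely, and the cause of that difference was not tested.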
